A study of Mus musculus with 8 samples.

Results

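Long intergenic non-coding RNAs (lincRNAs) are transcripts with their own promoters that lie between protein-coding genes and are not translated. Some are host transcripts from which microRNAs or small nucleolar RNAs are cut, some build nuclear bodies, and some act on or are co-regulated with a neighbouring gene. IKZF1 (Ikaros), a zinc-finger transcription factor of lymphocyte development, binds DNA words with the core GGGAA and recruits corepressor complexes, and promoters and enhancers that it closes lose accessibility to the transposase used in ATAC-seq. The regions described here were the places of open chromatin at lincRNA start sites. They were chosen as merged ATAC-seq peaks with a GENCODE vM21 lincRNA start site within 500 bp and no protein-coding start site within 2 kb, which gave 1181 of 174718 merged regions (0.676%) at 887 lincRNA genes of the 5854 annotated.

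ATAC-seq was performed on the mouse pre-B line B3 carrying Ikaros-ERt2 by transduction, a fusion of IKZF1 to a tamoxifen-responsive estrogen receptor domain that stays outside the nucleus until 4-hydroxytamoxifen (4-OHT) is added. The 8 libraries were 2 replicates each at 4 time points, namely untreated (0 h) and after 30 min, 1 h and 2 h with 500 nM 4-OHT. All groups carried the fusion, the cells were 1 transduced line, and the 0 h cells had received nothing, so that an effect of 4-OHT itself cannot be told apart from that of the fusion entering the nucleus. The labels do not say that the replicates were separate cultures, and p-values therefore measure only the spread between these libraries.

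Each library had its own list of 85903 to 103897 peaks, with a median of 11 to 14 fragments at the peak summit. The sequencing depth itself is not in the lists, and both lists at 0 h were shorter than those of the same replicate number after 1 h and 2 h. A peak was present at the start sites of all 8 pre-B marker genes examined and in all 8 lists for 7 of them (Cd79a, Cd79b, Pax5, Ebf1, Vpreb1, Igll1 and Blnk). No marker of T cells, myeloid cells or erythroid cells had a peak in all 8 lists, although the T cell gene Cd3g had a peak in 7.

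The sequences of 6 lincRNA promoter regions that moved are shown first, because the results below compare how many IKZF1 core words such windows hold. The windows are 200 bases around the peak summit on the plus strand of GRCm38, and capitals mark the 4-letter core words, which are GGAA with its complement TTCC and also GGGA with its complement TCCC; these words tile the IKZF1 core on both strands, and overlapping words each count. GGAA is also the core of the words bound by ETS factors. The first 2 regions fell in rank after 2 h, the third was no longer in either 2 h list, and the last 3 rose.
Gm10384, chr15:36879794-36879993: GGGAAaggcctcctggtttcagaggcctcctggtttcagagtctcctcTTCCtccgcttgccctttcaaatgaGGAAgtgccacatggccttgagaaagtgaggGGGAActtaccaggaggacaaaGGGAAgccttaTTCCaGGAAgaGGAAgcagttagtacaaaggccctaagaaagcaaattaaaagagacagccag
Mir155hg, chr16:84713331-84713530: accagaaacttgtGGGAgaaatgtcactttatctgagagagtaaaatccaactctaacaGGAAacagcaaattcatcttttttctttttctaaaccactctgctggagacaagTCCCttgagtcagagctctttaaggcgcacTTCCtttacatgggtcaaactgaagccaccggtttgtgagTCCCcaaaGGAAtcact
1700047F07Rik, chr4:107706968-107707167: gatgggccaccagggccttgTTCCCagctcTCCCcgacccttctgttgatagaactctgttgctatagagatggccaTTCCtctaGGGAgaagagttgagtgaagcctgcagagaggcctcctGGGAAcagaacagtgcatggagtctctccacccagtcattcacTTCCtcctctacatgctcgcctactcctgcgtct
Trp53cor1, chr17:29071984-29072183: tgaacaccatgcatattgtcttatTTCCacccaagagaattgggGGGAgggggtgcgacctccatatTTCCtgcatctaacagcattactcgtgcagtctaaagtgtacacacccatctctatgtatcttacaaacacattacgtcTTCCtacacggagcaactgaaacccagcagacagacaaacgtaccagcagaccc
1700029M03Rik, chr1:164960758-164960957: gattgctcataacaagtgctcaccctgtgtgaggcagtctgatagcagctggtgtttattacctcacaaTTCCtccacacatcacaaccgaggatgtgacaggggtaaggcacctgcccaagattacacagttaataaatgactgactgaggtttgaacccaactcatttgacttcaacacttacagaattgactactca
Gm35215, chr13:98945443-98945642: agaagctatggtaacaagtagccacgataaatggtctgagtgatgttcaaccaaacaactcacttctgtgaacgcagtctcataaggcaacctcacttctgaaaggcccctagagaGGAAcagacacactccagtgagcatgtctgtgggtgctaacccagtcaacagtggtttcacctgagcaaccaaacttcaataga
The core words numbered 11 at Gm10384, 6 at Mir155hg and 8 at 1700047F07Rik. They numbered 4 at Trp53cor1 and 1 each at 1700029M03Rik and Gm35215. These 6 are examples, and regions that fell and regions that rose overlapped in core words. AC151280.1 and Gm48914, which rose, held 6 and 5, and Gm26840, Gm15407 and 1110019B22Rik, which fell, held 4 each.

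LincRNA promoter regions had a peak in all 8 lists more often than merged regions as a whole, as a count without a test. Of the 1181, 448 (37.9%) had a peak in all 8 lists and 243 (20.6%) in only 1, against 27.4% and 27.6% of all merged regions. Regions at protein-coding start sites had a peak in all 8 lists in 52.1% of 23333 cases, and regions with no start site of any kind within 2 kb in 22.9% of 125724. Where the lincRNA start site lay inside the region, 217 of 383 (56.7%) were in all 8 lists, and where it lay 1 to 500 bp away 231 of 798 (28.9%) were. The median width was 162 bp (130 bp for all merged regions), the median GC content of the window was 52.0% (49.0%; 60% at protein-coding start sites), and the summit lay outside the lincRNA in 620 regions, in an exon of the lincRNA in 286 and in an intron in 275. The median distance to the nearest protein-coding start site was 37229 bp, and 65 regions had their summit inside a protein-coding gene body. Regions with the lincRNA start site inside had a median width of 232 bp, and those with it 1 to 500 bp away 135 bp. A wider region more readily holds a start site, and width was not adjusted for in comparing these 2 classes.

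The number of lincRNA promoter regions with a peak was 744 and 706 in the 0 h libraries, 763 and 692 after 30 min, 777 and 719 after 1 h, and 763 and 726 after 2 h. The replicate 1 library held more of them at every time, as it held more peaks in all. To compare libraries of unequal depth, each region was given the percentile of its highest fold over background within its own list. Over the 448 regions in all 8 lists the median percentile was 77.5 and 77.1 at 0 h, 78.8 and 76.6 after 30 min, 77.9 and 76.4 after 1 h, and 76.6 and 76.2 after 2 h. Over all 47875 regions in all 8 lists it rose from 71.6 and 69.1 at 0 h to 75.2 and 74.1 after 2 h. The middle of the lincRNA promoter distribution thus moved little while individual regions moved far. Replicates of a time differed by a median of 4.95 to 5.35 percentile points over the 448 regions, and their normal scores correlated at 0.881 to 0.898 across regions, which are not independent replicates.

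The first question was which lincRNA promoters changed after IKZF1 entered the nucleus. The 448 regions were tested with limma on normal scores of the fold, ranked among the 47875 regions, with all 8 libraries in 1 model and adjustment over all 47875; a call required an adjusted p under 0.01 and a shift is in normal-score units. At 30 min no region was called lower or higher (0% of all regions in each direction). At an unadjusted p under 0.05, 50 lincRNA promoter regions were lower and 39 higher, against 9.94% and 9.51% of all regions. At 1 h 15 were lower (3.35%; all regions 2.51%) and 4 were higher (0.893%; all regions 1.1%). At 2 h 25 were lower (5.58%; all regions 4.71%) and 8 were higher (1.79%; all regions 2.28%). These shares lie near those of all regions in both directions. At protein-coding promoter regions 2.95% of 12167 were lower and 0.674% higher after 2 h, and among regions with no start site within 2 kb the shares were 5.42% and 2.9% of 28787. The median shift of the lincRNA promoter regions was -0.05 after 30 min, -0.07 after 1 h and -0.07 after 2 h, and that of all tested regions was 0.03, 0.05 and 0.06.

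The number of calls rests on having both libraries of a time. Without 0 h replicate 1 the counts after 2 h were 3 lower and 2 higher, without 0 h replicate 2 they were 2 and 1, without 2 h replicate 1 they were 1 and 1, and without 2 h replicate 2 none was called; after 1 h no region was called without either 0 h or either 1 h library, and 6 lower and 3 higher were called without either 2 h library. Ranked among all peaks of a list, a scale on which the median of all regions rose by 0.17 and that of the lincRNA promoter regions by 0.05, 12 were lower and 9 higher after 2 h. Of these calls 57.1% were lower (all regions 52.1%), against 75.8% with the ranks used here (all regions 67.4%). On log2 summit fragments over background, on which the median of all regions rose by 0.22 and that of the lincRNA promoter regions by 0.04, 47 were lower and 36 higher (56.6% lower, all regions 47.6%). At 1 h these scales gave 4 lower and 5 higher (44.4% lower, all regions 50.9%) and 35 lower and 16 higher (68.6% lower, all regions 54.8%), against 78.9% lower with the ranks used here (all regions 69.6%).

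**Figure D1:**
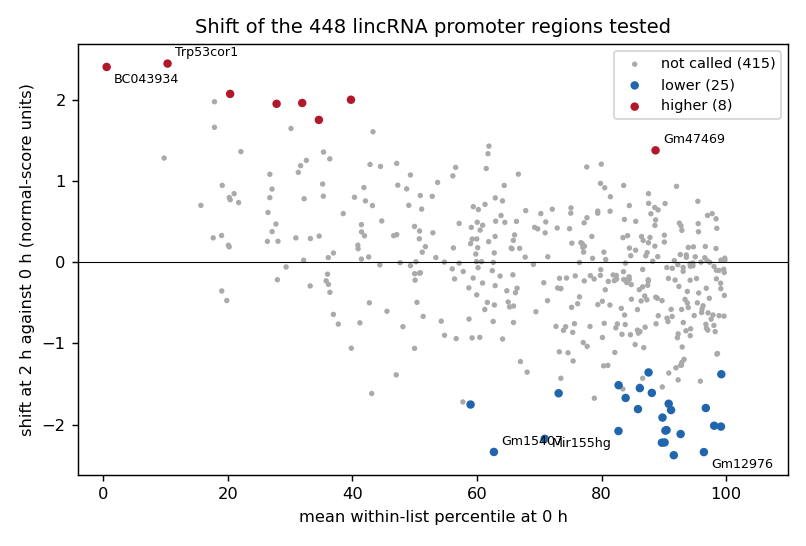
Shift after 2 h against 0 h (limma coefficient, normal-score units) for the 448 lincRNA promoter regions with a peak in all 8 lists, against the mean within-list percentile at 0 h, with 1 point per region. The 25 regions lower after 2 h (blue) lie mostly at high 0 h percentiles, and 7 of the 8 higher regions (red) lie at or below a mean percentile of 39.8; both axes use the 0 h libraries.

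The 25 lower regions were mostly strong before treatment. Their median percentile was 90.0 and 89.3 in the 0 h libraries, 71.7 and 70.4 after 30 min, 61.6 and 57.1 after 1 h, and 43.4 and 48.2 after 2 h. The median of their summit fragments was 51 and 34 at 0 h and 13 and 12 after 2 h. All 25 had a negative shift already after 30 min and after 1 h, and 14 of them were also called after 1 h. The 8 higher regions had a median percentile of 34.3 and 24.0 at 0 h, 68.2 and 62.5 after 30 min, 80.3 and 80.6 after 1 h, and 85.0 and 86.9 after 2 h. All 8 had a positive shift after 30 min and after 1 h, and all 4 regions called higher after 1 h were among them. Among these 25 and 8 regions, 4 lower and 4 higher ones had an adjusted p under 0.05 by limma already at 30 min, the lowest being 0.0199 at Trp53cor1. The regions were chosen by the difference between 2 h and 0 h, and every shift subtracts the same 0 h libraries. Agreement in sign between times, and the levels at 0 h, are therefore partly built in by that choice. So is the lack of overlap between 0 h and 2 h libraries given for single regions below.

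**Figure D2:**
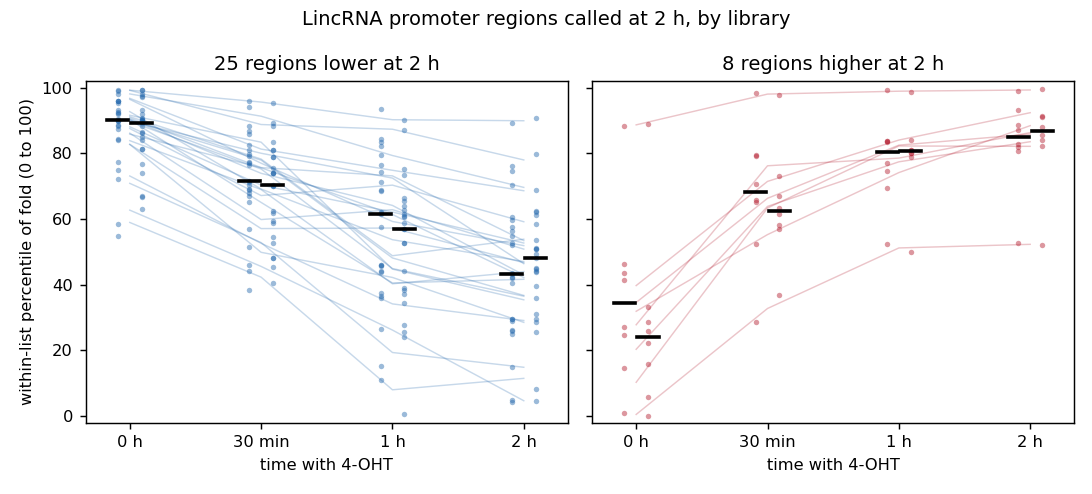
Within-list percentile of fold by library (points; the 2 replicates of a time side by side) for the lincRNA promoter regions lower (left) and higher (right) after 2 h, with thin lines through the mean of each region and black bars at the median of each library. The medians of the 25 lower regions fell from 90.0 and 89.3 at 0 h to 43.4 and 48.2 after 2 h, and those of the 8 higher regions rose from 34.3 and 24.0 to 85.0 and 86.9.

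Gm12976 (ENSMUSG00000087575) was the lower region with the most fragments to lose among the 12 with the largest shifts. Its summit held 96 and 72 fragments before treatment, 34 and 27 after 30 min, 17 and 18 after 1 h, and 15 and 14 after 2 h. Every library with 4-OHT lay below both 0 h libraries, and the shift was -2.34 ± 0.26 (SE) after 2 h (limma adjusted p = 0.00117) and -2.12 ± 0.26 after 1 h (limma adjusted p = 0.00245). The region (chr4:129263435-129263761) holds a start site of the lincRNA and lies 2031 bp from that of the protein-coding gene C77080, just outside the 2 kb limit. CT486005.1 (ENSMUSG00000117011, chr17:43158225-43158632), 111697 bp from the nearest protein-coding start site, held 85 and 51 fragments before treatment, 28 and 29 after 30 min, 11 and 15 after 1 h, and 8 and 10 after 2 h. It shifted by -2.22 ± 0.34 after 2 h (limma adjusted p = 0.0027), and the estimated local background of the summit fell with it, from 3.20 and 2.02 fragments before treatment to 0.51 and 0.60 after 2 h. Gm10384 (ENSMUSG00000072618, chr15:36879822-36880009) held 40 and 24 fragments before treatment and 8 and 10 after 2 h, with no overlap between the times, and shifted by -2.22 ± 0.35 (limma adjusted p = 0.00311).

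The largest negative shift after 2 h was that of Gm26840 (ENSMUSG00000097728, chr4:155769878-155770024), whose peak summit lies inside the body of the protein-coding gene Vwa1. It held 40 and 33 fragments before treatment and still 34 and 25 after 30 min, then 12 and 14 after 1 h and 11 and 12 after 2 h. Its step was between 30 min and 1 h, and the shift was -0.56 ± 0.33 after 30 min (limma adjusted p = 0.39) and -2.38 ± 0.33 after 2 h (limma adjusted p = 0.002). Gm15407 (chr5:148820538-148820830) shifted by -2.34 ± 0.31 on few fragments, with 12 and 13 at 0 h and 5 and 5 after 2 h (limma adjusted p = 0.00168). Gm26772 (chr14:25554555-25554955), with its summit inside Zmiz1, went from 23 and 15 fragments to 5 and 7. Its window held 13 core words, the most among the 25 lower regions, and its shift was -2.17 ± 0.41 (limma adjusted p = 0.00682).

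Some of the regions that fell were strong promoters, and every tested region had a peak in all 8 lists by construction, so a fall to no peak is not among them. The lincRNA start site lay inside the region at 1700017J07Rik and 1110019B22Rik. 1700017J07Rik (chr2:168978049-168978539) stood at percentiles 98.9 and 99.4 at 0 h with 84 and 65 fragments, and at 76.2 and 79.8 after 2 h with 20 and 22. 1110019B22Rik (chr10:95722228-95722644) stood at 98.1 in both 0 h libraries with 77 and 65 fragments, and at 70.3 and 68.9 after 2 h with 17 and 15. Both remained in the upper part of the 2 h lists, with shifts of -2.02 ± 0.28 (limma adjusted p = 0.00192) and -2.01 ± 0.27 (limma adjusted p = 0.00168). Gm33831 (chr8:34385163-34385685), with its start site 143 bp away, held 71 and 68 fragments before treatment but 7 and 13 after 2 h, at percentiles 24.9 and 61.1, so that its 2 h replicates lay far apart (limma adjusted p = 0.00817).

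For the other lower regions listed here, the nearest protein-coding start site is given. Gm43635 (chr6:127253982-127254321) is 101789 bp from the start site of Ccnd2, which encodes the G1 cyclin D2. It held 48 and 29 fragments before treatment, 19 and 12 after 30 min, 14 and 8 after 1 h, and 8 and 10 after 2 h (shift -2.12 ± 0.36, limma adjusted p = 0.0041). Gm13293 (chr2:11338804-11339158), 88346 bp from Prkcq, which encodes a protein kinase C of antigen receptor signalling, held 34 and 32 fragments before treatment and 10 and 9 after 2 h. Gm34574 (chr10:99229006-99229504), 33727 bp from Dusp6, which encodes a phosphatase of ERK, held 53 and 59 fragments before treatment and 20 and 14 after 2 h. Neither range overlapped, and the shifts were -2.07 ± 0.26 (limma adjusted p = 0.00144) and -1.67 ± 0.32 (limma adjusted p = 0.00662). Gm26803 (chr13:83729668-83729991), 76780 bp from Mef2c, a transcription factor gene of B cell development, held 46 and 34 fragments before treatment and 23 and 17 after 2 h. Its percentiles were 55.0 and 63.0 at 0 h and 14.9 and 8.18 after 2 h, low for so many fragments, since the fold divides by a local background that was 4.60 and 2.79 fragments before treatment and 4.02 and 3.05 after 2 h (shift -1.75 ± 0.34, limma adjusted p = 0.00763). AC141471.3, 19086 bp from Cxxc5 (limma adjusted p = 0.00395), and Gm33056, 65258 bp from Olig3 (limma adjusted p = 0.00985), were also lower after 1 h and 2 h. Of 7 other ways of scaling or fitting, 2 called Gm26803 after 2 h, 3 called Gm33056 and 4 called Gm34574. Gm12525, 3706 bp from Mybphl, was lower after 1 h (-2.21 ± 0.35, limma adjusted p = 0.00507) and, at -1.67 ± 0.35, missed the threshold after 2 h.

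Trp53cor1 (ENSMUSG00000085912), known as lincRNA-p21, is a p53-induced lincRNA next to Cdkn1a, which encodes the cell cycle inhibitor p21. The region that rose (chr17:29071713-29072235) lay in an intron, 107 bp from a start site and 18741 bp from that of Cdkn1a. Its summit held 10 and 6 fragments before treatment, 22 and 19 after 30 min, 39 and 33 after 1 h, and 38 and 36 after 2 h, and its percentile went from 14.7 and 5.93 to 82.0 and 82.2. All 6 libraries with 4-OHT lay above both 0 h libraries, the 1 h and 2 h values overlapped, and the shift of 2.45 ± 0.26 was the largest positive one after 2 h (limma adjusted p = 0.00106). The gene had 2 other regions. The one in an exon at an upstream start site (chr17:29078936-29079285) held 46 and 35 fragments before treatment and 28 and 22 after 2 h, with a shift of -0.56 ± 0.26 (limma adjusted p = 0.156). The region at chr17:29072852-29073056 held 36 and 17 at 0 h and 11 in the single 2 h list that had it. The difference between these regions was not tested.

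The next higher regions started from little signal. 1700029M03Rik (chr1:164960730-164960959), whose start site lies inside the region, held 11 and 7 fragments before treatment, 23 and 18 after 30 min, 33 and 37 after 1 h, and 42 and 39 after 2 h (shift 2.07 ± 0.28, limma adjusted p = 0.00173). Gm35215 (chr13:98945472-98945654) held 12 and 10 fragments before treatment, 41 and 30 after 30 min, 35 and 36 after 1 h, and 50 and 43 after 2 h (shift 1.95 ± 0.26, limma adjusted p = 0.00168). In both, the lowest library with 4-OHT exceeded the highest at 0 h. AC151280.1 (chr17:68187817-68187983) rose later, with 9 and 5 fragments before treatment, 11 and 12 after 30 min, 16 and 22 after 1 h, and 32 and 29 after 2 h (shift 1.96 ± 0.31, limma adjusted p = 0.00311). Gm48914 (chr14:32317992-32318234) held 9 and 6 fragments before treatment and 34 and 27 after 2 h, and 4933432I03Rik (chr14:103033432-103033797), 13180 bp from Acod1, which encodes the enzyme that makes itaconate, held 20 and 10 at 0 h and 31 and 42 after 2 h. Both were higher after 2 h (limma adjusted p = 0.00208 and 0.00472).

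BC043934 and Gm47469 rose from other levels. BC043934 (chr9:96437021-96437336) held 20 and 14 fragments before treatment and 32 and 27 after 2 h, and its percentile went from 0.96 and 0.13 to 52.6 and 52.0. That change joined more fragments to a falling local background, which was 5.10 and 3.84 fragments before treatment and 3.02 and 2.55 after 2 h, and the region was called under 4 of 7 other ways of scaling or fitting (shift 2.41 ± 0.28, limma adjusted p = 0.00129). Gm47469 (chr13:74563787-74564375) was the only one of the 8 that was strong at the start, with 62 and 50 fragments before treatment and 106 and 116 after 2 h. It went from percentiles 88.3 and 89.0 to 99.0 and 99.6, with no overlap (shift 1.38 ± 0.26, limma adjusted p = 0.00697).

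Only 4 regions were called higher after 1 h, and the 5 largest rises at an adjusted p under 0.05 add 2 that were not called. G930045G22Rik (chr6:50848249-50848568) held 4 and 6 fragments before treatment, 19 and 15 after 30 min, 17 and 21 after 1 h, and 13 and 23 after 2 h (shift 2.09 ± 0.49 after 1 h, limma adjusted p = 0.0206). A second region of AC141471.3 (chr18:35874538-35874727), 224 bp from a start site, held 19 and 16 fragments before treatment, 36 and 44 after 30 min, 38 and 42 after 1 h, and 40 and 31 after 2 h (shift 1.60 ± 0.33 after 1 h, limma adjusted p = 0.0139). Both were at their later level by 30 min, with no overlap with 0 h in fragments. The lower region of AC141471.3 (chr18:35873824-35874314) went the other way over the same libraries, from 51 and 36 fragments before treatment to 32 and 27, then 23 and 16, and then 20 and 17. The 2 regions of AC141471.3 lie close together and need not be separate promoters. Their local backgrounds at 0 h were nearly equal, at 3.39 and 2.16 in the lower region and 3.37 and 2.15 in the second. The difference between the regions was not tested.

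Presence of a peak was followed separately, since 733 of the regions were absent from at least 1 list. Of the 614 lincRNA promoter regions with a peak in both 0 h lists, 51 had none in either list after 30 min (8.31%; all regions 10.9%), 66 after 1 h (10.7%; all regions 14.6%) and 82 after 2 h (13.4%; all regions 16.6%). Of the 345 with no peak in either 0 h list, 41 had a peak in both lists after 30 min (11.9%; all regions 11.1%), 69 after 1 h (20%; all regions 19.2%) and 92 after 2 h (26.7%; all regions 23.9%). Over peaks of any height, the shares lost were below and the shares gained near those of all regions, without a test. Where the start site lay inside the region, 22 of 275 (8.0%) were lost after 2 h, and where it lay 1 to 500 bp away 60 of 339 (17.7%) were. The gained shares ran the other way, with 23 of 61 (37.7%) where the start site lay inside and 69 of 284 (24.3%) where it lay 1 to 500 bp away. These 2 classes also differed in median width, as given above, which was not adjusted for. At protein-coding promoter regions 7.05% of 14306 were lost and 21.6% of 5344 gained after 2 h. Most lost and gained regions were weak. Only 8 of those lost and 3 of those gained after 2 h had over 20 summit fragments in both libraries that held them. The 8 were 3.09% of the 259 regions with over 20 fragments in both 0 h libraries (all such regions 3.86%). The 3 were 0.87% of the 345 with no peak in either 0 h list (all such regions 0.738%), so these shares have unlike bases. At this limit the lost shares, again of the 259, were above those of all such regions at the earlier times. They were 7 regions after 30 min (2.7%, all such regions 1.4%) and 9 after 1 h (3.47%, all such regions 2.99%). With all lists cut to the length of the shortest, 98 were lost after 2 h (16.4%; all regions 19.7%) and 69 gained (26%; all regions 23.5%). Another region with a peak in both 2 h lists lay within 500 bp of 30 of the 82 lost (36.6%; 18.5% of all lost regions), and one with a peak in both 0 h lists within 500 bp of 25 of the 92 gained (27.2%; 13.3% of all gained regions).

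**Figure D3:**
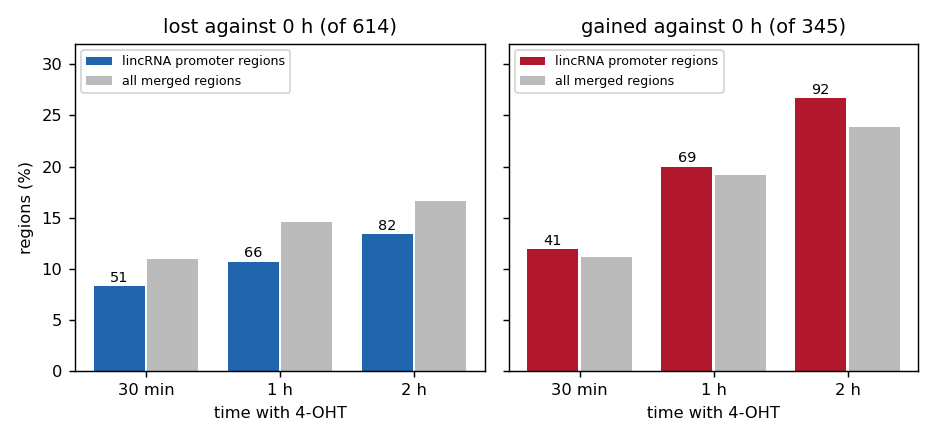
Share of lincRNA promoter regions (coloured bars, with counts) and of all merged regions (grey) lost or gained at each time, as percent of the regions with a peak in both 0 h lists (left, 614 lincRNA promoter regions) or in neither (right, 345). Losses rose from 51 to 82 regions and gains from 41 to 92 between 30 min and 2 h.

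The strongest promoter lost was that of 1700047F07Rik (ENSMUSG00000085549, chr4:107706982-107707173), with the lincRNA start site inside the region. It stood at percentiles 99.7 and 97.5 at 0 h with 64 and 41 fragments. It held 16 and 19 fragments after 30 min and 6 and 5 after 1 h, and no peak was called in either library after 2 h. The nearest region with a peak in both 2 h lists was 2467 bp away. Gm36723 (chr12:25316015-25316264) likewise went from 40 and 24 fragments before treatment to 9 and 7 after 1 h and to no peak after 2 h, with the nearest such region 4041 bp away. Both windows held 8 core words, and both held the longer word TGGGAA or TTCCCA. Gm29340 (37 and 26 fragments before treatment), Gm15409 (32 and 29) and a region of Gm35202 (39 and 27) had no peak in any library with 4-OHT. These 3 lay on a high local background of 3.66 to 6.70 fragments, and Gm15409 and Gm35202 had a region with a peak in both 2 h lists 172 and 128 bp away. Gm37584 held 41 and 17 fragments before treatment and 12 in 1 library after 30 min.

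The gained regions with the most fragments were Gm47204 (chr9:44479729-44479878), with 33 and 23 fragments after 30 min, 26 and 21 after 1 h and 34 and 25 after 2 h, and Gm17322 (chr9:57997965-57998213), with 11 and 9 after 30 min, 18 and 15 after 1 h and 27 and 23 after 2 h. Gm47204 was at its level by 30 min, whereas the counts of Gm17322 rose at each time. Gm33619 (chr10:21187130-21187243) lies 26146 bp from Myb, a transcription factor gene of progenitor growth, and held 24 and 19 fragments after 2 h. A second region of Gm35202 held 25 and 21, and 1700041G16Rik held 21 and 18, at percentiles of 7.19 to 24.3. A region with a peak in both 0 h lists lay 78 to 303 bp from each of these 5. Gm49439 (chr15:42067480-42067834) had the nearest such region 29606 bp away and held 12 and 18 fragments after 1 h and 17 and 25 after 2 h.

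Of 72 well-known lncRNA symbols, 32 are annotated as lincRNA, 21 of these had at least 1 region, and the 55 regions included 26 tested ones. Of the 26, 1 was lower after 2 h (4.71% of all regions) and 1 higher (2.28% of all regions), and their median shift was -0.12 (0.06 for all regions). Of 33 with a peak in both 0 h lists 2 were lost (16.6% of all such regions), and of 15 with a peak in neither 3 were gained (23.9% of all such regions). Among host transcripts of small RNAs, Mir155hg, the host of miR-155, had 4 regions. Of these 3 were tested, with 2 shifts below 0 and 1 above after 2 h. The only one called (chr16:84713204-84713573) lay in an intron 181 bp from an internal start site and held 54 and 30 fragments before treatment, 18 and 15 after 30 min, 15 and 13 after 1 h, and 11 and 12 after 2 h. Its percentile fell from 88.5 and 76.9 to 26.1 and 31.0, with no overlap and most of the fall by 30 min (shift -1.49 ± 0.28 after 30 min, limma adjusted p = 0.0297; -2.08 ± 0.28 after 2 h, limma adjusted p = 0.00173). The region in an exon near an upstream start site (chr16:84703228-84703436) held 33 and 24 fragments before treatment and 38 and 38 after 2 h, with a shift of 0.18 ± 0.25 (limma adjusted p = 0.662), and the difference between the regions was not tested. The hosts Mir142hg (shift -0.07 ± 0.29) and Snhg6 (-0.10 ± 0.33), Snhg12 (0.18 ± 0.32) and Snhg20 (-0.67 ± 0.25), which carry snoRNAs in introns, were not called at their main start sites (limma adjusted p = 0.895, 0.859, 0.72 and 0.0905). Mir17hg had no region in all 8 lists.

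Among lncRNAs of nuclear bodies, the start-site region of Neat1, the scaffold of paraspeckles, held 30 and 16 fragments before treatment and 27 and 18 after 2 h (shift -0.47 ± 0.46, limma adjusted p = 0.501). A small region at the start site of Malat1, an abundant RNA of nuclear speckles, had no peak at 0 h and 20 and 13 fragments after 2 h. In the X inactivation centre, the 3 tested regions of Ftx moved by -0.76 ± 0.30, 0.27 ± 0.29 and 0.76 ± 0.32 and the tested region of Jpx by -0.55 ± 0.32, none of them called. Among p53-linked and cell cycle lncRNAs, a region of Lncpint (chr6:31216721-31216994) held 16 and 19 fragments before treatment and 49 and 46 after 2 h (shift 1.36 ± 0.37, limma adjusted p = 0.0299), above the threshold used. Of the 6 regions of Lncpint 2 were tested, and the other tested one had a shift below 0 and was not called. Lockd, next to Cdkn1b, shifted by -0.89 ± 0.25 (limma adjusted p = 0.0341), also not called. At 2900097C17Rik (Norad), which holds PUMILIO proteins in the cytoplasm, the shift was -0.24 ± 0.27, and at Pvt1, the neighbour of Myc, it was 0.50 ± 0.27 (limma adjusted p = 0.581 and 0.207). Gm14005 (Morrbid), a regulator of myeloid cell survival, had 1 region lost and 1 gained. Miat, Rmst, Meg3, H19, Hotair and Hottip, among others, had no region within 500 bp of a start site.

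**Figure D4:**
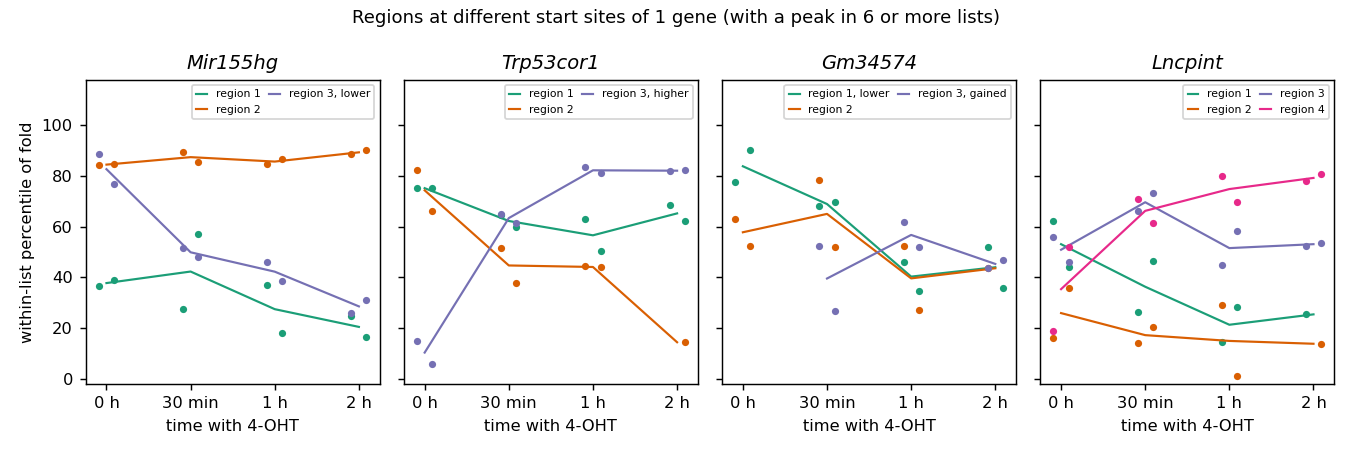
Within-list percentile of fold by library (points) and mean per time (lines) for regions at different start sites of Mir155hg, Trp53cor1, Gm34574 and Lncpint, numbered from 5′ to 3′ of the lincRNA and limited to regions with a peak in at least 6 lists. Region 3 of Mir155hg fell from 88.5 and 76.9 to 26.1 and 31.0 while region 2 lay between 84.4 and 90.2, and region 3 of Trp53cor1 rose from 14.7 and 5.93 to 82.0 and 82.2.

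Several lincRNA genes had more than 1 region. Of 51 genes with 3 or more regions (171 regions, 69 tested), 4 of those tested were lower after 2 h (5.8%; all regions 4.71%) and 1 higher (1.45%; all regions 2.28%). Of the 96 with a peak in both 0 h lists 15 were lost (15.6%; all regions 16.6%), and of the 39 with a peak in neither 8 were gained (20.5%; all regions 23.9%). In 22 of these genes at least 2 regions were tested, and in 9 of the 22 all shifts had the same sign. C130071C03Rik, the only one of them with 3 tested regions of the same sign, had shifts of -0.77 ± 0.27, -0.29 ± 0.26 and -1.62 ± 0.55, none of them called (limma adjusted p = 0.0705, 0.47 and 0.0655). At Gm34574 and Gm38414 the called region fell while a neighbouring region was gained and lost respectively.

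The most accessible lincRNA promoters stayed at the top of every list. Gm42418, Gm20939, Gm32856, Gm31793 and 2700038G22Rik had the highest mean percentiles, all between 98.5 and 100 in every library. Their shifts after 2 h were 0.05 ± 0.30, 0.03 ± 0.28, -0.13 ± 0.28, -0.09 ± 0.30 and -0.41 ± 0.36, none of them called (limma adjusted p = 0.452 to 0.954). Gm42418 lies at a ribosomal RNA repeat, where reads from many near-identical copies can be assigned to 1 place, and its level is uncertain.

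Core words were counted in the 200 bp window of every region as a description. The 25 lower regions held a median of 7 words (4 to 13) and the 8 higher regions 3.5 (1 to 6), against 4 (0 to 11) in the 415 tested regions that were not called. The 82 lost regions held a median of 6.5 and the 92 gained regions 3. None of the lower or lost regions held fewer than 2 words, whereas 3 of the 8 higher and 16 of the 92 gained did. Among all merged regions 20 of 2256 lower, 172 of 11581 lost, 256 of 1092 higher and 3895 of 16223 gained did. GGGAA or TTCCC was present in 18 of 25 lower regions (72%), 1 of 8 higher (12.5%), 55 of 82 lost (67.1%), 26 of 92 gained (28.3%) and 191 of 415 not called (46.0%), and in 41.5% of all merged regions. Among all merged regions by class it was present in 58.7% of lower, 25.5% of higher, 60.4% of lost, 27.6% of gained and 42% of not called. The contrast between classes was thus not particular to lincRNA promoter regions. TGGGAA or TTCCCA, which contains that word, was present in 4 of 25 lower (16.0%), 1 of 8 higher (12.5%), 24 of 82 lost (29.3%) and 13 of 92 gained (14.1%), and in 14.9% of all merged regions. By class over all merged regions the shares were 19.3% of lower, 5.86% of higher, 23% of lost and 8.62% of gained. At least 1 core word was present in 96.7% of all merged regions. Among all merged regions the medians were 6 for both lower and lost, 4 for not called and 3 for both gained and higher. The median GC content was 53.5% in lower and 51.0% in higher lincRNA promoter regions.

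**Figure D5:**
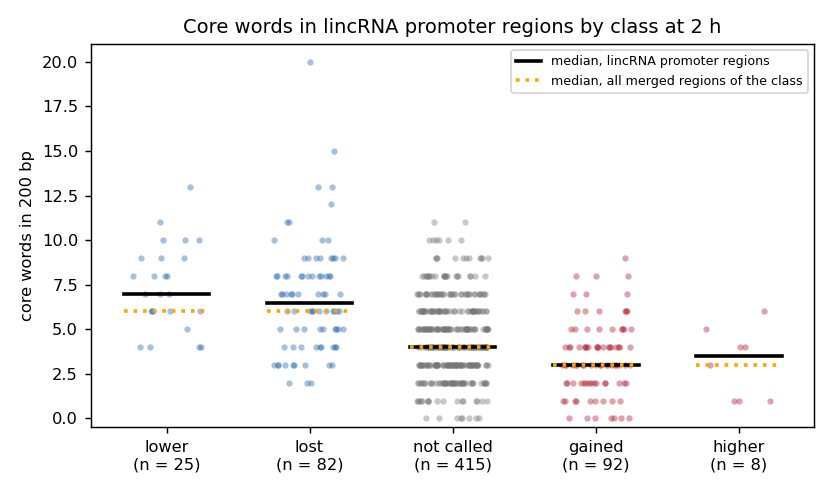
Core words (GGAA, GGGA and their complements, overlaps counted) in the 200 bp window of each lincRNA promoter region, by its class after 2 h, with 1 point per region, the median of the class as a black bar and the median of all merged regions of the class as a dotted line. The medians were 7 for lower, 6.5 for lost, 4 for not called, 3 for gained and 3.5 for higher regions.

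Regions just inside and just outside the limits of the rule were compared by count. Of the 130 regions with the lincRNA start site 401 to 500 bp away, 36 were tested and none was called after 2 h, and of the 114 at 501 to 600 bp, just outside, 28 were tested, with 2 lower and 2 higher. Of the 16 regions 2001 to 2500 bp from a protein-coding start site 7 were tested and 1 was lower, and of the 7 left out for such a start site at 1500 to 2000 bp 4 were tested and none was called.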

How the data were processed

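ATAC-seq fragments under 120 bp (nucleosome-free) were mapped by the authors with BWA 0.7.17, shifted for the Tn5 cut with deepTools 2.3.5 and passed, library by library and with no control, to MACS2 2.1.2; the labels give GRCm38, and all regions lay inside GRCm38.p6. The deposited peak lists hold a fold (pileup over local background, a ratio), −log10 p-values and −log10 q-values, and a summit offset. Fold and p together gave whole summit fragments for 100% of peaks (tolerance 0.001 in −log10 p). Library totals are not in the lists.

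Peaks of the 8 lists were merged at any overlap, annotated with every GENCODE M21 transcript start, and scored by the highest fold. Normal scores over the 47875 regions in all 8 lists were tested with limma 3.58.1 (R 4.3.3), all groups in 1 model, Benjamini-Hochberg adjusted. Requiring all 8 lists leaves out regions that close or open fully; these were followed as lost (a peak in both 0 h lists, none at the time) or gained, without a test. Fragment recovery, the merging of peaks, the normal scores and the limma fit were checked on simulated or toy data, and the other steps were not. Sequences are from GRCm38.p6. A further marker gene and the sequences of some regions are not reported here.

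Named regions were those called (up to 12 a direction and time), the 6 lost and 6 gained with the most fragments, the 5 strongest, regions of 72 known lncRNAs, and genes with 3 or more regions, of which only examples are printed. Fewer than 5 regions were higher at 1 h, and the rule then adds the 5 largest at an adjusted p under 0.05. Members, lists and rules were chosen with earlier results of these data known.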

Additional observations from a re-analysis of the deposited data

How the results depend on the processing

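No region called after 2 h and named above changed direction under any alternative. The number of calls after 2 h fell most when a 0 h or 2 h library was left out, as given above. The alternatives reuse the libraries by which these regions were chosen, so agreement in direction was largely fixed in advance. With all 8 lists, 25 such regions were followed: 24 kept their call with a mean trend and robust prior and on summit fragments over background, 23 when these were centred and when ranked by −log10 p, 17 with ranks over the whole list, 16 with regions in at least 2 lists, and 21 with the replicate block, which lost Gm26803, Gm33056, Gm34574 and Gm47469. Deviations of libraries with the same replicate number correlated at 0.017 to 0.040 between times, none over 0.1. These are rank-based scores, which give every library the same distribution, so the values do not settle whether replicate numbers pair the libraries. With the replicate block, 11 regions were lower and 4 higher after 1 h and 19 and 7 after 2 h, a change of less than 1.5 times. The shares were 2.5% and 0.893% after 1 h (all regions 1.88% and 0.714%) and 4.24% and 1.56% after 2 h (all regions 3.98% and 1.8%).

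The counts moved by more. At an adjusted p under 0.05 they were 6 lower and 4 higher after 30 min (1.34% and 0.893%, all regions 1.49% and 0.702%). After 1 h they were 49 and 27 (10.9% and 6.03%, all regions 8.18% and 5.74%). After 2 h they were 62 and 32 (13.8% and 7.14%, all regions 11.1% and 8.34%). With a mean trend and robust prior 1 was lower after 30 min (0.223%, all regions 0.437%). This setting gave 25 lower and 17 higher after 1 h (5.58% and 3.8%, all regions 4.43% and 3.1%). It gave 42 and 19 after 2 h (9.4% and 4.24%, all regions 6.83% and 4.71%). Ranks over the whole list gave 4 lower after 1 h (0.893%, all regions 1.02%) and 12 lower after 2 h (2.68%, all regions 2.72%). Summit fragments over background gave 3 and 2 after 30 min, 35 and 16 after 1 h, and 47 and 36 after 2 h, and centred 3 and 2, 44 and 13, and 58 and 26. Uncentred, the shares were 0.67% and 0.446% after 30 min (all regions 1.27% and 0.307%), 7.81% and 3.57% after 1 h (5.16% and 4.26%), and 10.5% and 8.04% after 2 h (7.15% and 7.87%). Centred, they were 0.67% and 0.446% (all regions 1.3% and 0.322%), 9.82% and 2.9% (6.63% and 3.48%), and 12.95% and 5.8% (9.37% and 5.43%). Regions in at least 2 lists (938 tested, more features) gave 4 and 1, 37 and 12, and 64 and 17. Their shares were 0.426% and 0.107% after 30 min (all regions 0.549% and 0.0269%), 3.9% and 1.28% after 1 h (4.33% and 1.33%), and 6.82% and 1.81% after 2 h (6.27% and 2.36%). A −log10 q of at least 5 gave 1 higher after 30 min (0.266%, all regions 0.0421%). A start site inside the region (217 tested) gave 7 lower and 1 higher after 1 h (3.23% and 0.461%, all regions 2.5% and 1.1%). After 2 h it gave 13 and 2 (5.99% and 0.922%, all regions 4.71% and 2.28%). A start site within 1 kb (620 tested) gave 13 higher after 2 h (2.1%, all regions 2.28%). Leaving out each library in turn gave 0 to 0 lower and higher after 30 min, 0 to 10 lower and 0 to 4 higher after 1 h, and 0 to 23 lower and 0 to 8 higher after 2 h; there a time is left with 1 library, which is assumed to vary like the others. The cause of the other moves was not tested.

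Lost regions numbered 51 to 110 after 30 min, 66 to 125 after 1 h and 82 to 149 after 2 h, and gained regions 41 to 131, 69 to 149 and 92 to 170, when each library was left out in turn, since 1 list then decides. After 2 h the shares were 13.4% to 20.3% lost (all regions 16.6% to 24.7%) and 26.7% to 49.3% gained (all regions 23.9% to 46.9%). Over 20 summit fragments in both libraries left 7, 9 and 8 lost and 1, 2 and 3 gained. A start site within 1 kb gave 85, 117 and 136 lost and 62, 112 and 142 gained, and one inside the region 7, 18 and 22 lost and 8, 20 and 23 gained, as more or fewer regions qualify. After 2 h the shares within 1 kb were 15.6% lost (all regions 16.6%) and 26% gained (all regions 23.9%). With the start site inside they were 8% and 37.7%. Peaks with few fragments limit presence: summits of 4 and 5 fragments occur among the named regions.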
